A study of Mus musculus with 9 samples.

Results

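Calcium handling of cardiomyocytes was described with 10 member genes, taken from the count matrix by symbol. They are the calcium pump gene Atp2a2 and its inhibitor Pln, the release channel gene Ryr2 with its partners Casq2 and Trdn, the channel pore genes Cacna1c, Cacna1d and Cacna1g, the exchanger gene Slc8a1 and the kinase gene Camk2d. The count matrix of 22851 genes gave 9 of the 10 members, and Pln was not analysed here. RNA of the heart was sequenced from male C57BL/6 mice (C57BL/6J in the methods of the study) aged 6 to 8 weeks at the start, in 9 libraries, 3 per group. CK mice received citrate buffer, DCM mice received streptozotocin at 180 mg/kg, which destroys the insulin-producing beta cells of the pancreas, and SPM mice received the same streptozotocin together with spermine at 1 mg/kg, a polyamine given before it and for the weeks after it. Hearts were taken after 12 weeks. All 3 groups share the strain and the time, no group received spermine without streptozotocin, and the tissue label names the myocardium, so cells other than cardiomyocytes contribute RNA. The comparisons ask which members differ in the diabetic heart (DCM compared to CK). They also ask which differ when spermine is given before and after streptozotocin (SPM compared to DCM).

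In a heartbeat, depolarization opens L-type calcium channels in the surface membrane, and the calcium that enters opens ryanodine receptors in the sarcoplasmic reticulum, the calcium store of the muscle cell. The released calcium starts contraction and is then removed, mostly back into the store by the SERCA pump and otherwise out of the cell by the sodium-calcium exchanger. Slower reuptake and changed balance between pump and exchanger are textbook features of the failing and the diabetic heart, and calmodulin kinase II phosphorylates several proteins of this cycle.

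Total counts per library lay between 29901300 and 39718680, and every member was counted at least 105 times in every library. The mitochondrial share of a library was at most 16.2% in CK, between 15.5% and 18.9% in DCM and at least 21.0% in SPM. SPM replicate 2 stood apart, because 66.3% of 14493 genes and 8 of the 9 members had a normalized value there that fell within the interval spanned by the other two SPM libraries, whereas the highest such share elsewhere was 40%, in CK replicate 2. Of 2656 genes without a count in SPM replicates 1 and 3, only 30 had a count in SPM replicate 2, against 485 to 1162 genes in the same check of the other libraries. Whether it is a library of its own is therefore in doubt, and if it is not, n = 3, the SDs and the statements on overlap for SPM rest on 2 libraries. Tests for SPM are given with and without it, and the lowest and highest CPM of SPM come from replicates 1 and 3 for all members except Cacna1d. Log2 fold changes also fell with the GC content of the transcript in SPM compared to DCM (rank correlation -0.502 over 14484 genes, each a gene and no replicate) and in SPM compared to CK (-0.366), but hardly in DCM compared to CK (0.0602). Members differ in this respect, from 36.8% GC in Trdn, 40.2% in Slc8a1 and 43.9% in Camk2d to 58.1% in Cacna1g, around a median of 49.7% over all genes of SPM compared to DCM. The extraction protocol deposited for the libraries speaks of retinas while the tissue label names the heart, and the summed level of a list of cardiomyocyte markers (8 of 10 in the matrix, led by Myh6, Mb and Myl2) was 49259 to 65396 CPM (counts scaled to the library size after TMM normalization), against 0.584 to 1.70 CPM for a list of retina markers (7 of 10 in the matrix, led by Sag, Pde6a and Gnat1).

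Levels between genes were compared per length, as FPKM. Atp2a2 was the highest member in every library, with 2253 ± 93.3 FPKM in CK, 1817 ± 141 in DCM and 1683 ± 162 in SPM (mean ± SD, n = 3 here and below, SPM replicate 2 included). Without SPM replicate 2, the SPM mean was 1679.7 FPKM for Atp2a2, 28.4 for Trdn and 24.6 for Cacna1c. Casq2, which encodes the calcium buffer of the store, followed with 273 ± 18.6 FPKM in CK, and Ryr2 with 84.7 ± 11.0 FPKM. The L-type pore gene Cacna1c reached 24.1 ± 1.19 FPKM in CK, whereas the low-voltage pore gene Cacna1g reached 3.31 ± 0.263 and the second L-type pore gene Cacna1d reached 0.733 ± 0.0844. The order was the same in CK and DCM, and neighbours did not overlap except Camk2d with Trdn and Trdn with Slc8a1. In SPM, Trdn moved up to the fourth place with 28.4 ± 0.889 FPKM, above Cacna1c at 24.6 ± 0.387 FPKM without overlap, and Cacna1c overlapped with Camk2d and Camk2d with Slc8a1. FPKM values carry no GC correction, and Trdn has 36.8% GC against 50.3% in Cacna1c.

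**Figure D1:**
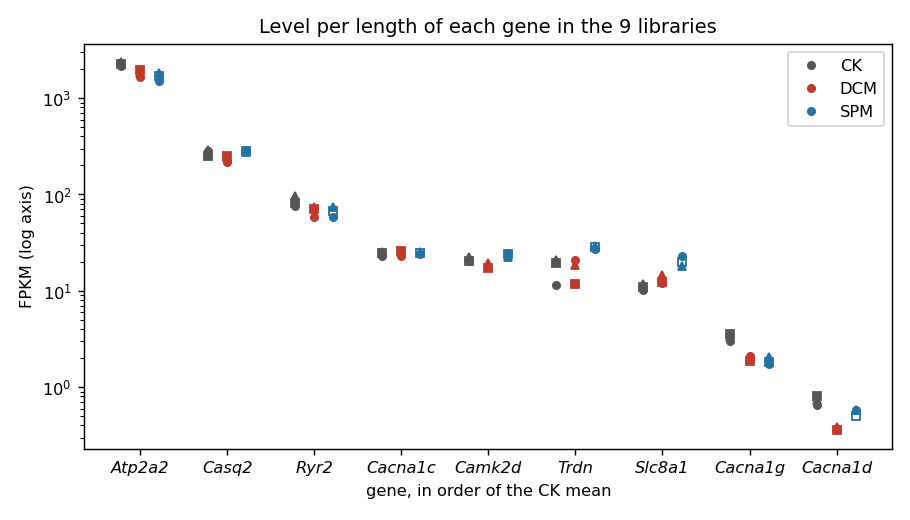
FPKM (log axis) of the 9 analysed members in each library, ordered by the CK mean, with circles, squares and triangles for replicates 1, 2 and 3 and an open square for SPM replicate 2. Atp2a2 does not fall below 1518 FPKM, Cacna1d lies below 1 FPKM in every library, and Trdn and Slc8a1 are highest in SPM.

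In DCM compared to CK, Cacna1d and Cacna1g were downregulated, to 0.535 and 0.641 of the CK level, and Slc8a1 was upregulated 1.26-fold. The other 6 members, among them the 3 most abundant ones, did not pass the test. A gene was called at a Benjamini-Hochberg adjusted p below 0.05 in edgeR's quasi-likelihood test over all genes, and was called a DEG if it also changed at least 1.5-fold. Of the 9 members, 3 were called, against 10.4% of the 14402 genes tested, and 2 were DEGs, against 4.34%. The libraries of both groups did not overlap for 4 members and for 29.3% of all genes tested. The median log2 fold change was -0.12 over the members and -0.00 over all genes. In bulk RNA, fewer cells of a type and less RNA per cell cannot be told apart.

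Cacna1d encodes an L-type pore that opens at more negative voltages than that of Cacna1c and is best known from the sinoatrial node and the atria. It had 5.96, 7.48 and 6.88 CPM in CK replicates 1 to 3, 3.47, 3.56 and 3.84 CPM in DCM, and SPM libraries had 5.73, 5.02 and 5.66 CPM. All DCM libraries lay below all CK and all SPM libraries, and without SPM replicate 2 the lowest SPM value was 5.66 CPM. The log2 fold change in DCM compared to CK was -0.90 (SE 0.17, edgeR adjusted p = 0.00474) and stayed called in each of the alternatives run and without each library in turn. The gene lies on chromosome 14 at 30039939-30491455 on the minus strand (GENCODE M21, GRCm38). RefSeq lists 2 starts for it, and the gene counts do not say which of them was used. Of 6 members called in a comparison, 3 had a promoter in the RefSeq table used, and Cacna1g, Trdn and Atp2a2 had none. Promoters of the 3 (GRCm38.p6, 250 bases before to 50 after the start, given 5′ to 3′ on the strand of the gene) are shown as control regions of called members. GATA and GGGCGG on either strand are in capitals. The upstream start has 40.3% GC, and the inner start has 87.3%.
Cacna1d upstream start, chr14:30491107-30491406, minus strand: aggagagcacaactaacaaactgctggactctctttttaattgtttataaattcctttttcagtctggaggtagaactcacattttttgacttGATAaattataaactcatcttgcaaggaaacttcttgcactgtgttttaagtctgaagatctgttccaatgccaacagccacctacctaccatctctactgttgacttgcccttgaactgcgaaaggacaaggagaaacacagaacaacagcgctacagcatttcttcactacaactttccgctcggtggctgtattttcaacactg
Cacna1d inner start, chr14:30353437-30353736, minus strand: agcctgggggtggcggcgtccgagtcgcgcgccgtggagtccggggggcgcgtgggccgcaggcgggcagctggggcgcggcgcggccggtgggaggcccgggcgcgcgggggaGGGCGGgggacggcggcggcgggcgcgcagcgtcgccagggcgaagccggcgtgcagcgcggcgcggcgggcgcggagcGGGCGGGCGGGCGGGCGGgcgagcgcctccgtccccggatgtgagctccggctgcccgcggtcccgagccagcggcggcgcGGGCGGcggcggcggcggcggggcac

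The window of the upstream start holds GATA at 1 place and TATAAA at 3 places, counting both strands and overlapping matches, and that of the inner start holds GGGCGG at 6 places and the E box CANNTG at 1. For comparison, 57.9% of 32851 RefSeq promoter windows of the same length hold GATA, 35.7% GGGCGG, 13.6% TATAAA and 72.3% the E box. Neither window holds the MEF2 consensus (0.557% of all windows) or the CArG box of SRF (1.63%). A match is a description of letters only.

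Cacna1g encodes a T-type pore, which opens near the resting potential and serves pacemaking and conduction tissue. It had 24.3, 28.4 and 27.1 CPM in CK replicates 1 to 3, 17.5, 16.1 and 17.5 CPM in DCM, and SPM libraries had 14.9, 15.5 and 17.8 CPM. The CK libraries were the 3 highest, and DCM and SPM overlapped. The log2 fold change in DCM compared to CK was -0.64 (SE 0.094, edgeR adjusted p = 0.00104), called in each of the alternatives run and without each library in turn. Cacna1c, the main L-type pore gene of ventricular muscle, ranged from 286 to 320.3 CPM in CK and from 300.3 to 355 CPM in DCM, with a log2 fold change of 0.13 (SE 0.082, edgeR adjusted p = 0.384).

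Markers of atrial and nodal tissue were set beside both pore genes. The summed level of 8 atrial markers, 6 of which reached 1 CPM in every library, was 1078 to 1454 CPM in CK, 629.5 to 1100.4 CPM in DCM, with 1105 to 1765 CPM in SPM, and none was at 0 in any group. Among its leading genes, Myl4, the atrial essential light chain, fell in DCM (log2 fold change -0.96, edgeR adjusted p = 0.00841), whereas Myl7 (-0.56, 0.121) and Nppa (-0.14, 0.712) did not pass. In SPM compared to DCM, Nppa rose (0.74, edgeR adjusted p = 0.0292), whereas Myl4 (0.60, 0.106) and Myl7 (0.66, 0.112) did not pass. The summed level of 7 markers of the sinoatrial node, 3 of which reached 1 CPM in every library, was 36.7 to 39.5 CPM in CK, 29.9 to 37.2 CPM in DCM, with 34.8 to 38.5 CPM in SPM, and none was at 0 in any group. Its leading genes Tbx3, Hcn4 and Tbx18 had log2 fold changes of -0.05, -0.58 and 0.30 in DCM compared to CK, and none passed (edgeR adjusted p = 0.805, 0.0652 and 0.340). The DCM and CK libraries of Hcn4 did not overlap. In SPM compared to CK, Hcn4 fell (-0.71, edgeR adjusted p = 0.0252), whereas Tbx3 (0.13, 0.245) and Tbx18 (0.46, 0.0505) did not pass. A list of 6 neuron markers, 2 of which reached 1 CPM in every library, summed to 16.1 to 19.4 CPM in CK and 11.5 to 13.9 CPM in DCM. In SPM the list summed to 14.6 to 16.3 CPM, so DCM did not overlap with either group. Of these markers, 1 was at 0 in all DCM libraries and 1 in all SPM libraries. Its leading genes Stmn2 (-0.49, edgeR adjusted p = 0.0695), Dbh (-0.37, 0.229) and Snap25 (-1.05, 0.594) did not pass in DCM compared to CK. Neither did Stmn2 (0.25, 0.190) and Dbh (0.31, 0.192) in SPM compared to DCM. A list of 6 macrophage markers, each at 1 CPM or more in every library, summed to 616 to 813 CPM in CK, 491 to 585 CPM in DCM, with 592 to 1019 CPM in SPM, so DCM did not overlap with either group, as for Cacna1d. Of this list Lyz2, Csf1r and C1qa, the leading genes, and Adgre1 fell in DCM (log2 fold changes -0.50, -0.49, -0.52 and -0.93). Cd68 (-0.30, edgeR adjusted p = 0.244) and Mrc1 (-0.27, 0.0581) did not pass. Lyz2 (0.62), C1qa (0.73), Adgre1 (1.15) and Mrc1 (0.64) rose in SPM compared to DCM, whereas Csf1r (0.23, edgeR adjusted p = 0.133) and Cd68 (0.32, 0.0946) did not pass. A list of fibroblast markers (6 of 7 in the matrix, each at 1 CPM or more in every library) summed to at least 1969.6 CPM in CK, at most 1423 CPM in DCM and 1588 to 1649 CPM in SPM. In this list, too, DCM did not overlap with either group. Its collagen genes Col3a1 (-1.54), Col1a1 (-1.06) and Col1a2 (-0.81) and Lum (-0.49) fell in DCM, whereas Dcn (-0.04) and Pdgfra (0.05) did not pass. In SPM compared to DCM, Lum (0.42) and Dcn (0.36) rose. Col3a1 (0.04, edgeR adjusted p = 0.905), Col1a1 (-0.17, 0.428), Col1a2 (-0.10, 0.557) and Pdgfra (0.20, 0.0666) did not pass there. The collagen genes were also called lower in SPM compared to CK (-1.50, -1.23 and -0.92). Endothelial markers summed to 1775 to 2037 CPM in CK, 1656 to 1814 CPM in DCM and 1541 to 1691 CPM in SPM. Smooth muscle markers summed to 482 to 659 CPM in CK, 471 to 795 CPM in DCM and 394 to 533 CPM in SPM. In both of these lists DCM overlapped with either group. All fits of marker genes for SPM include SPM replicate 2. The part of these lists in the change of Cacna1d and Cacna1g was not tested.

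Slc8a1 encodes the sodium-calcium exchanger of cardiac muscle, which carries calcium out of the cell after each beat. It had 178, 191 and 213 CPM in CK replicates 1 to 3, 219.6, 239 and 275 CPM in DCM, and SPM libraries had 432, 378 and 345 CPM. The 3 groups followed each other without overlap in the order CK, DCM, SPM. The log2 fold change in DCM compared to CK was 0.33 (SE 0.095, edgeR adjusted p = 0.0417). The adjusted p exceeded 0.05 without CK replicate 1 (0.112), CK replicate 2 (0.138), DCM replicate 2 (0.0896) or DCM replicate 3 (0.150), and with all 9 libraries in one fit (0.0561) or limma on log2 of FPKM plus 0.1 or plus 1 (0.144 and 0.148). The gene lies on chromosome 17 at 81373105-81738377 on the minus strand, and its RefSeq promoter holds GATA at 4 places, the E box at 1 and neither GGGCGG nor TATAAA.
Slc8a1, chr17:81738338-81738637, minus strand: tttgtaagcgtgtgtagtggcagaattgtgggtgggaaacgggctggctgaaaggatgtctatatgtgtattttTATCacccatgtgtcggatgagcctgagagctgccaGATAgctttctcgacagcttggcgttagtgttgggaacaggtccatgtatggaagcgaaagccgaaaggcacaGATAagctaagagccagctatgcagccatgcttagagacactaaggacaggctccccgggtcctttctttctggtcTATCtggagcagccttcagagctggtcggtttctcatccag

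Atp2a2, which encodes the SERCA pump of heart muscle, had 11715, 12075 and 12947 CPM in CK replicates 1 to 3, 9502, 11504 and 10545 CPM in DCM, and SPM libraries had 8869, 9817 and 10706 CPM. The DCM libraries all lay below the CK libraries, with a narrow gap between DCM replicate 2 and CK replicate 1. The log2 fold change in DCM compared to CK was -0.22 (SE 0.089, edgeR adjusted p = 0.151), and it passed without DCM replicate 2 (-0.29, adjusted p = 0.0484). Ryr2, the release channel, ranged from 1208 to 1579.6 CPM in CK and from 980.1 to 1269.7 CPM in DCM, with a log2 fold change of -0.24 (SE 0.12, edgeR adjusted p = 0.225) and DCM replicates 2 and 3 above the lowest CK library. Casq2 ranged from 611 to 712 CPM in CK and from 549 to 658 CPM in DCM (log2 fold change -0.12, SE 0.089, edgeR adjusted p = 0.439). Camk2d, the main calmodulin kinase II gene of the heart, ranged from 106 to 121 CPM in CK and from 97.3 to 111 CPM in DCM (log2 fold change -0.12, SE 0.080, edgeR adjusted p = 0.394).

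Trdn encodes triadin, which ties calsequestrin to the release channel. It had 48.9, 82.7 and 90.6 CPM in CK replicates 1 to 3, 93.4, 55.1 and 84.7 CPM in DCM, and SPM libraries had 128, 131 and 135 CPM. CK replicate 1 and DCM replicate 2 were low, the other CK and DCM libraries overlapped, and the SPM libraries were the 3 highest. CK replicate 1 and DCM replicate 2 also had the lowest mitochondrial share of counts in their groups, 13.7% and 15.5%, and the part of this in the level of Trdn was not tested. The log2 fold change in DCM compared to CK was 0.07 (SE 0.21, edgeR adjusted p = 0.881) and changed sign without CK replicate 1 (-0.15) or without DCM replicate 1 (-0.08).

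**Figure D2:**
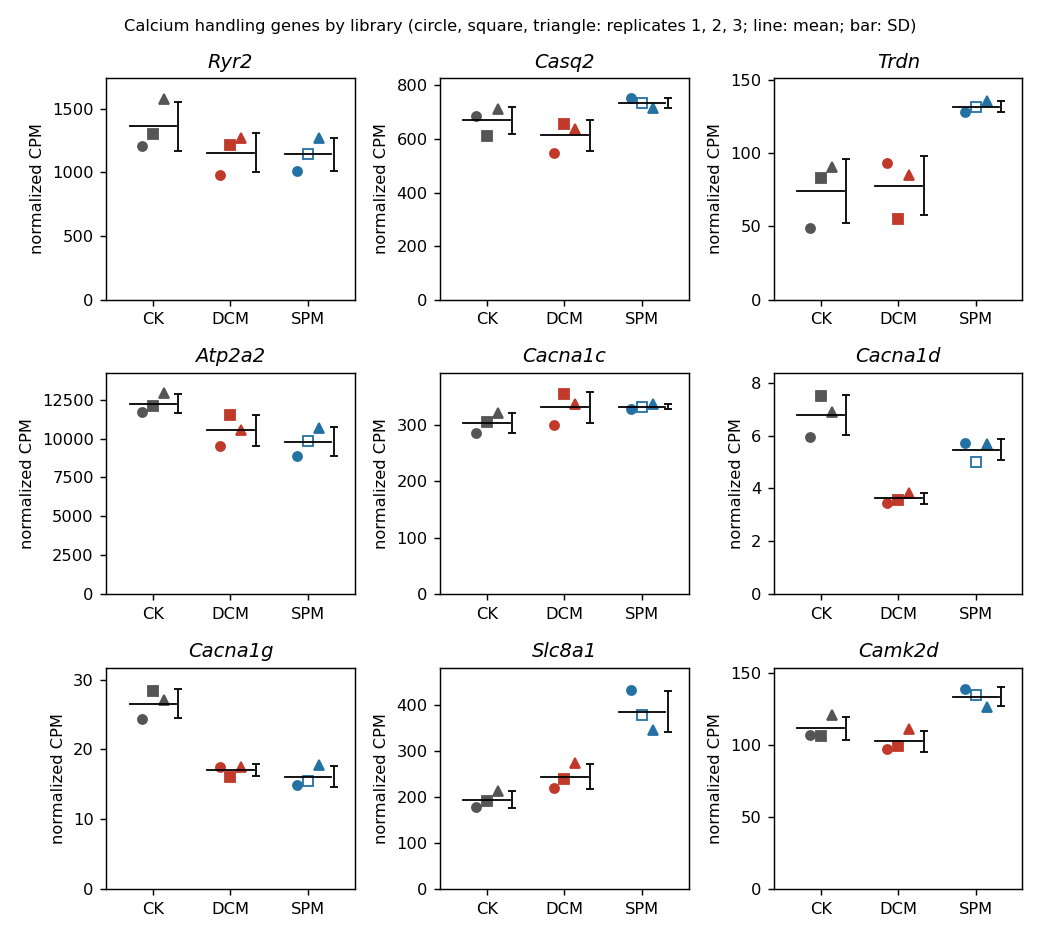
Normalized CPM of each analysed member in the 3 libraries per group, with circles, squares and triangles for replicates 1, 2 and 3, a line for the mean and a bar for the SD, and an open square for SPM replicate 2. Cacna1d and Cacna1g are lower in every DCM library than in any CK library, and Slc8a1 and Trdn are highest in the 3 SPM libraries.

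In SPM compared to DCM, Trdn rose 1.69-fold, Slc8a1 1.57-fold, Cacna1d 1.51-fold and Camk2d by 0.38 on the log2 scale, and no member fell past the threshold. Of the 9 members, 4 were called, against 16.6% of the 14493 genes tested, and 3 were DEGs, against 3.59%. The libraries did not overlap for 5 members and for 39.2% of all genes. The median log2 fold change was 0.26 over the members and 0.01 over all genes. With a correction for GC content, no member was called in edgeR (4 had an unadjusted p below 0.05, as had 23.9% of all genes), against 3.08% of all genes, whereas DESeq2 without the correction called 5, against 19.8%. Without SPM replicate 2, Slc8a1 alone was called, against 0.486% of all genes.

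Trdn had a log2 fold change of 0.76 (SE 0.15, edgeR adjusted p = 0.0149), which was 0.34 with the GC correction (adjusted p = 0.0576) and 0.76 without SPM replicate 2 (adjusted p = 0.0552). For Slc8a1 the log2 fold change was 0.66 (SE 0.10, edgeR adjusted p = 0.00968). It was 0.32 with the GC correction (adjusted p = 0.117), 0.67 without SPM replicate 2 and 0.64 without DCM replicate 2 (adjusted p = 0.0558). Cacna1d, with a transcript close to the median in GC content (49.6%), had a log2 fold change of 0.59 (SE 0.15, edgeR adjusted p = 0.0286), which hardly moved with the GC correction (0.58, adjusted p = 0.0557) and was 0.65 without SPM replicate 2 (adjusted p = 0.105). Its call was also lost without DCM replicate 1 or 2 or SPM replicate 1 or 3, with adjusted p from 0.0558 to 0.0794. The fall of Cacna1d in DCM and its rise in SPM were measured against the same DCM libraries, so they are not independent of each other.

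Camk2d had 107, 106 and 121 CPM in CK replicates 1 to 3, 97.3, 99.1 and 111 CPM in DCM, and SPM libraries had 139, 135 and 126 CPM. The SPM libraries lay above all others, and CK and DCM overlapped. The log2 fold change in SPM compared to DCM was 0.38 (SE 0.074, edgeR adjusted p = 0.0142), which was 0.18 with the GC correction (adjusted p = 0.150) and 0.37 without SPM replicate 2 (adjusted p = 0.0738), and the call was lost as well without DCM replicate 1 (0.0552) or DCM replicate 2 (0.0654). The gene lies on chromosome 3 at 126596302-126846326 on the plus strand, and its promoter holds GGGCGG at 3 places and none of the other motifs searched.
Camk2d, chr3:126596701-126597000, plus strand: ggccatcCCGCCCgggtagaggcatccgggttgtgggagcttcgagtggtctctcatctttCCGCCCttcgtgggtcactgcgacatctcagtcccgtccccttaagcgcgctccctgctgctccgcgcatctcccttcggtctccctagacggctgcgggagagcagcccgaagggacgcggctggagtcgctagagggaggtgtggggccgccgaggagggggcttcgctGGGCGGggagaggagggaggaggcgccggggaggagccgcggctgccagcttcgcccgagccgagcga

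Casq2 also stood above DCM in every SPM library (718 to 755 against 549 to 658 CPM), with a log2 fold change of 0.26 (SE 0.082) and an edgeR adjusted p of 0.0534. It passed in 5 of 11 alternatives (adjusted p from 0.0141), among them DESeq2, and missed without each library in turn. Cacna1g (-0.08, SE 0.095), Ryr2 (-0.02, SE 0.11), Atp2a2 (-0.10, SE 0.10) and Cacna1c (0.00, SE 0.076) did not pass, with edgeR adjusted p of 0.569, 0.927, 0.507 and 0.972. For Cacna1g and Atp2a2, which were lower in DCM than in CK in each library, the level with spermine thus overlapped with that of DCM. The summed cardiomyocyte markers were 49259 to 54128 CPM in SPM and 57043 to 65396 CPM in DCM, without overlap. Of these markers, Ckm (-0.33) and Myl3 (-0.30) fell. The leading genes Myh6 (-0.29, edgeR adjusted p = 0.165), Mb (-0.19, 0.117) and Myl2 (-0.17, 0.243) did not pass. Neither did Tnni3 (-0.18, 0.126), Mybpc3 (-0.15, 0.324) and Tnnt2 (0.00, 0.987). The part of these markers in the results above was not tested.

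**Figure D3:**
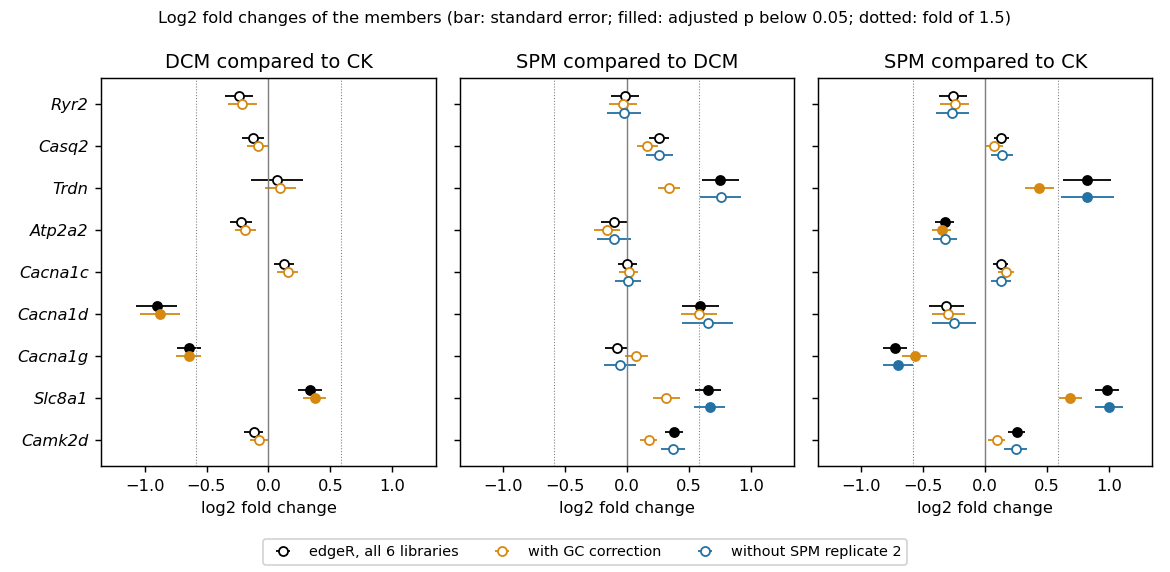
Log2 fold change of each analysed member in the 3 comparisons with its standard error, fitted by edgeR to all 6 libraries (black), with a correction for GC content (orange) and without SPM replicate 2 (blue), where filled points have an adjusted p below 0.05 and dotted lines mark a fold of 1.5. Cacna1d and Cacna1g keep their place in DCM compared to CK, whereas the rises of Trdn, Slc8a1 and Camk2d in SPM shrink with the GC correction.

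In SPM compared to CK, Slc8a1 rose 1.98-fold, Trdn 1.77-fold and Camk2d 1.19-fold, and Cacna1g and Atp2a2 fell, to 0.603 and 0.797 of the CK level. Of the 9 members, 5 were called, against 27.4% of the 14574 genes tested, and 3 were DEGs, against 9.21%. The libraries did not overlap for 8 members and for 46.3% of all genes. With the GC correction 4 members were called, against 21.3%, and without SPM replicate 2 there were 3, against 10.4%. Slc8a1 had a log2 fold change of 0.98 (SE 0.096, edgeR adjusted p = 0.000748), which was 0.69 with the GC correction and was called there and without SPM replicate 2. The value for Cacna1g was -0.73 (SE 0.097, edgeR adjusted p = 0.00179), and it was -0.57 with the GC correction and called in both. Trdn, at 0.82 (SE 0.19, edgeR adjusted p = 0.0147), was called at 0.44 with the GC correction and lost its call when the correction was combined with leaving out SPM replicate 2 (adjusted p = 0.0856). Atp2a2 had -0.33 (SE 0.075, edgeR adjusted p = 0.0142) and -0.35 with the GC correction, but its adjusted p was 0.0611 without SPM replicate 2. Camk2d had 0.25 (SE 0.070, edgeR adjusted p = 0.0281), lost its call with the GC correction (0.09), and also without CK replicate 1 (adjusted p = 0.0855), CK replicate 2 (0.0978), SPM replicate 1 (0.0660) or SPM replicate 2 (0.117). Cacna1d stayed below CK in each SPM library, with a log2 fold change of -0.31 (SE 0.14) and an edgeR adjusted p of 0.126.

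Ratios within a library do not depend on its scaling, and were chosen after the values of the members had been seen, so they carry no test. They carry no GC correction either, and the genes of a pair can differ in GC content. Trdn has 36.8% against 49.6% in Ryr2, and Slc8a1 40.2% against 48.2% in Atp2a2, whereas Cacna1d (49.6%) and Cacna1c (50.3%) are close. The part of GC content in the ratios of SPM was not tested. The FPKM of Slc8a1 was 0.466% to 0.506% of that of Atp2a2 in CK, 0.637% to 0.800% in DCM, with 0.989% to 1.498% in SPM, without overlap between any groups. DCM thus stood between CK and SPM in this ratio. Cacna1d stood at 2.84% to 3.35% of Cacna1c in CK, 1.36% to 1.57% in DCM, with 2.07% to 2.38% in SPM, again without overlap. Cacna1g was 65.8% to 79.4% of Cacna1h, the second T-type pore gene of the heart, in CK, but 25.1% to 34.9% in DCM, with 30.4% to 33.7% in SPM. By contrast, Ryr2 stood at 3.48% to 4.12% of Atp2a2 in CK, 3.48% to 4.06% in DCM, with 3.84% to 3.997% in SPM, with all groups overlapping. Trdn was 15.1% to 23.6% of Ryr2 in CK, 16.9% to 35.5% in DCM, with 39.8% to 47.2% in SPM, so the SPM libraries alone stood clear. Without SPM replicate 2 the SPM range began at 2.29% for Cacna1d to Cacna1c and at 31.9% for Cacna1g to Cacna1h, and the other ranges were unchanged.

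**Figure D4:**
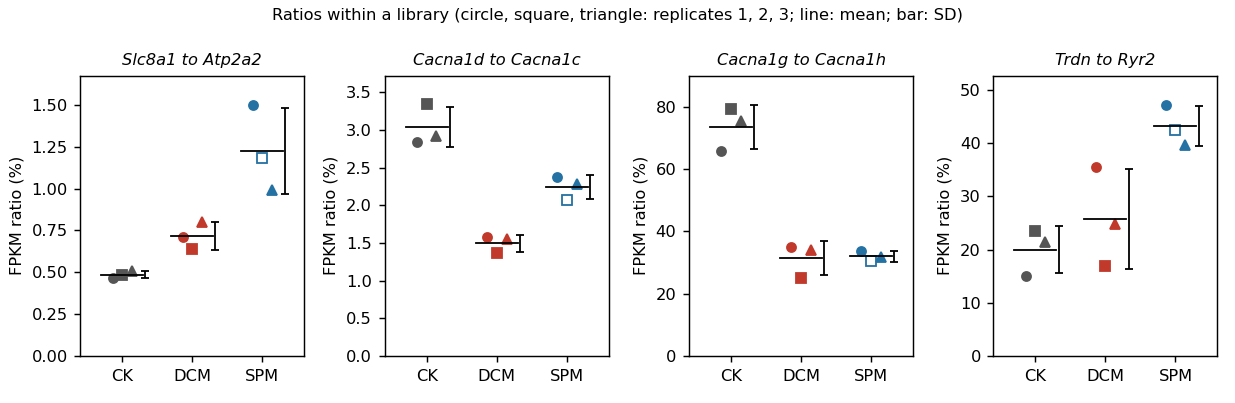
FPKM of one gene as a percentage of that of another within each library, with circles, squares and triangles for replicates 1, 2 and 3, a line for the mean and a bar for the SD. Slc8a1 to Atp2a2 rises from CK to DCM to SPM without overlap, and Cacna1g to Cacna1h is lower in all 6 libraries of DCM and SPM than in CK. The ratios carry no correction for GC content.

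The nearest course over the 9 libraries was the smallest root mean square difference of log2 CPM after the mean of each gene was removed. The nearest genes were sought among the 14909 genes in the fit of all 9 libraries, leaving out genes on the calcium handling lists and genes without a symbol. For Cacna1d these were Igsf10 (0.126), Tbc1d31 (0.140) and Adam17 (0.154). For Cacna1g they were Enpep (0.0708), Ets1 (0.0952) and Fndc5 (0.0968). Slc8a1 was followed most closely by Retreg1 (0.0714), Nr1d2 (0.0854) and Cp (0.113), and Trdn by Nexn (0.0459), Ube3a (0.0740) and the mitochondrial gene mt-Nd2 (0.0787). Nexn had 87.9 ± 23.9 CPM in CK, 98.0 ± 26.2 in DCM and 157 ± 6.92 in SPM, with the same wide spread in CK and DCM as Trdn. These are descriptions of level only.

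Beyond the members, 98 of 101 genes on 7 lists of calcium handling were in the matrix. In DCM compared to CK, 13 of 91 tested were called, 7 upregulated and 6 downregulated (5.28% and 5.11% of all genes tested). DEGs numbered 5, against 4.34% of all genes, and the median log2 fold change of the 91 genes was -0.04. Without CK replicate 2 the number called was 8. Among pump isoforms and small pump regulators, 3 of 7 (42.9%) were called, against 10.4% of all genes tested. Sln, which encodes sarcolipin, an inhibitor of the pump found mainly in atria and skeletal muscle, had 175, 130 and 182 CPM in CK and 46.9, 89.8 and 101 CPM in DCM, a log2 fold change of -1.04 (SE 0.22, edgeR adjusted p = 0.00958). The groups did not overlap. DCM replicate 1, the lowest, also had the lowest sum of atrial markers (629.5 CPM). That sum was 1047 and 1100 CPM in DCM replicates 2 and 3, and 1078 CPM in CK replicate 2. The part of these markers in the level of Sln was not tested. Mrln, encoding another small inhibitor, myoregulin, fell by 2.29 on the log2 scale (edgeR adjusted p = 0.0165) from 26 to 33 counts in CK to 3 to 8 in DCM, and its adjusted p exceeded 0.05 without CK replicate 2 (0.0622), DCM replicate 1 (0.0552) or DCM replicate 3 (0.0726). Atp2a3, a pump gene of non-muscle cells, rose by 0.54 (edgeR adjusted p = 0.00233), whereas Hax1, the second most abundant of the list after Sln, was not called.

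Of 24 genes of the release unit and store, 4 (16.7%) were called in DCM compared to CK, 1 upregulated and 3 downregulated, against 10.4% of all genes tested. Casq1, the skeletal calsequestrin, fell by 1.77 (SE 0.19, edgeR adjusted p = 0.000124), from 7.34 to 8.90 CPM in CK to 1.86 to 2.70 CPM in DCM, with 3.11 to 3.41 CPM in SPM. A list of skeletal muscle markers (6 of 8 in the matrix, led by Mylpf, 1 at 0 in DCM and 2 in SPM) summed to 3.32 to 4.90 CPM in CK, 2.44 to 3.64 CPM in DCM, with 1.92 to 3.66 CPM in SPM, and its part in the level of Casq1 was not tested. Srl, encoding the luminal protein sarcalumenin, fell by 0.43 (edgeR adjusted p = 0.00400), while Tmem38b, a counter-ion channel of the store, rose by 0.43 (edgeR adjusted p = 0.0167), a call lost without CK replicate 2 (0.0813), DCM replicate 2 (0.0706) or DCM replicate 3 (0.0565). The 2 most abundant genes of this list, S100a1 and Hrc, were not called.

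Among 14 channel genes tested, Cacna1h rose by 0.61 (SE 0.096, edgeR adjusted p = 0.00170), from 35.1 to 36.3 CPM in CK to 49.1 to 62.8 CPM in DCM, and Cacna1s, the skeletal L-type pore, by 0.57 (edgeR adjusted p = 0.00653). Both pore genes moved opposite to Cacna1g and Cacna1d. These were the 2 calls of the list (14.3%, against 10.4% of all genes tested). Its most abundant members, Rrad, a small protein that restrains L-type channels, and the subunit gene Cacna2d1, were not called. Of 24 genes for calmodulin, its kinases and its phosphatases, Camk2b fell by 0.65 (SE 0.12, edgeR adjusted p = 0.00450) and Camk2a rose by 0.26 (edgeR adjusted p = 0.0305). The call of Camk2a was lost without each library except DCM replicate 1 (adjusted p 0.0658 to 0.106) and with limma on FPKM (up to 0.122), and the abundant Rcan2 and Calm3 were not called. Mcur1, a regulator of the mitochondrial uniporter, rose by 0.29 (edgeR adjusted p = 0.0151, but 0.0566, 0.0502 and 0.0543 without CK replicate 2, DCM replicate 2 and DCM replicate 3, and 0.0515 and 0.0501 with limma on FPKM), the single call of 9 on its list, whose most abundant genes Smdt1 and Micu2 were not called. Saraf, which restrains store-operated entry, rose by 0.34 (edgeR adjusted p = 0.0145, but 0.0810 without CK replicate 2), the single call of 8, and Orai3, the most abundant gene there after Saraf, was not called. The shares called were 8.33% in the calmodulin list, 11.1% in the mitochondrial list and 12.5% in the store-operated list, near the 10.4% of all genes. Of 5 genes of calcium extrusion tested, among them the plasma membrane pumps Atp2b1 and Atp2b4, none was called by edgeR or DESeq2 (11.8% of all genes were in DESeq2), and 1 had an unadjusted p below 0.05 in edgeR, as had 24.6% of all genes.

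In SPM compared to DCM, 15 of 88 genes on the lists were called, 9 upregulated and 6 downregulated (8.87% and 7.76% of all genes tested). DEGs numbered 2, Cacnb1 and Micu3, against 3.59% of all genes. With the GC correction 3 were called, against 3.08% of all genes. Without SPM replicate 2 edgeR called 0, against 0.486% of all genes, with 24 of 90 at an unadjusted p below 0.05, as had 3266 of all 14828 genes. DESeq2 on all libraries called 22, against 19.8% of all genes, and edgeR called 1 without DCM replicate 2 and 2 without DCM replicate 1. Cacnb1, a beta subunit of the L-type channel, was 11.0 to 12.7 CPM in DCM, with 6.79 to 7.06 CPM in SPM, a fall by 0.75 (SE 0.11, edgeR adjusted p = 0.00920), and was called at -0.56 with the GC correction. Tmem38b (-0.50) was called there and not without the correction. Calls that were lost with the correction included Akap6 (0.43), Asph (0.36) and Hrc (-0.34) of the release unit, Rrad (-0.28), Cacnb2 (0.27), Ppp1cb (0.49), Camk1d (0.43), Calm2 (0.23), Micu3 (0.91), Smdt1 (-0.31) and Trpc1 (0.40). Cacnb2 and Calm2 changed sign under it, to -0.11 and -0.02. The pump list had no call in edgeR (2 at an unadjusted p below 0.05, as had 34.6% of all genes) and 2 in DESeq2, and Sln had 76.5, 113 and 141 CPM in SPM, a log2 fold change of 0.48 (SE 0.26, edgeR adjusted p = 0.224).

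In SPM compared to CK, 36 of 89 were called, 15 upregulated and 21 downregulated (13.0% and 14.3% of all genes tested), with a median log2 fold change of -0.08 against 0.00 for all genes. This number was 26 with the GC correction, against 21.3% of all genes, and 12 without SPM replicate 2, against 10.4%. Of 22 genes of the release unit tested, 10 (45.5%) were called, 2 upregulated and 8 downregulated, against 27.4% of all genes tested. Without SPM replicate 2, 5 of 24 (20.8%) were called, against 10.4% of all genes. Casq1 (-1.32), Cacnb1 (-0.89), Srl (-0.37), Cacna1h (0.47), Trpc1 (0.67), Saraf (0.30) and Ppp1cb (0.53) were called also without SPM replicate 2, and so were Bin1 (-0.59), which shapes the T-tubules, and Ppp1r3a (0.86), a targeting subunit of protein phosphatase 1. Mrln (-1.72), Camkk1 (-0.89), Camk2b (-0.45), Micu3 (0.94), Rrad (-0.52), Letm1 (-0.34), Atp2a3 (0.29), Atp2b4 (-0.27) and Orai1 (-0.25) were not called without it. Of the genes still called without it, Ppp1cb and Srl were called in 10 of 11 alternatives and the others in 11 of 11. Over these alternatives the log2 fold change went down to 0.47 for Ppp1r3a, 0.39 for Trpc1 and 0.25 for Ppp1cb.

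**Figure D5:**
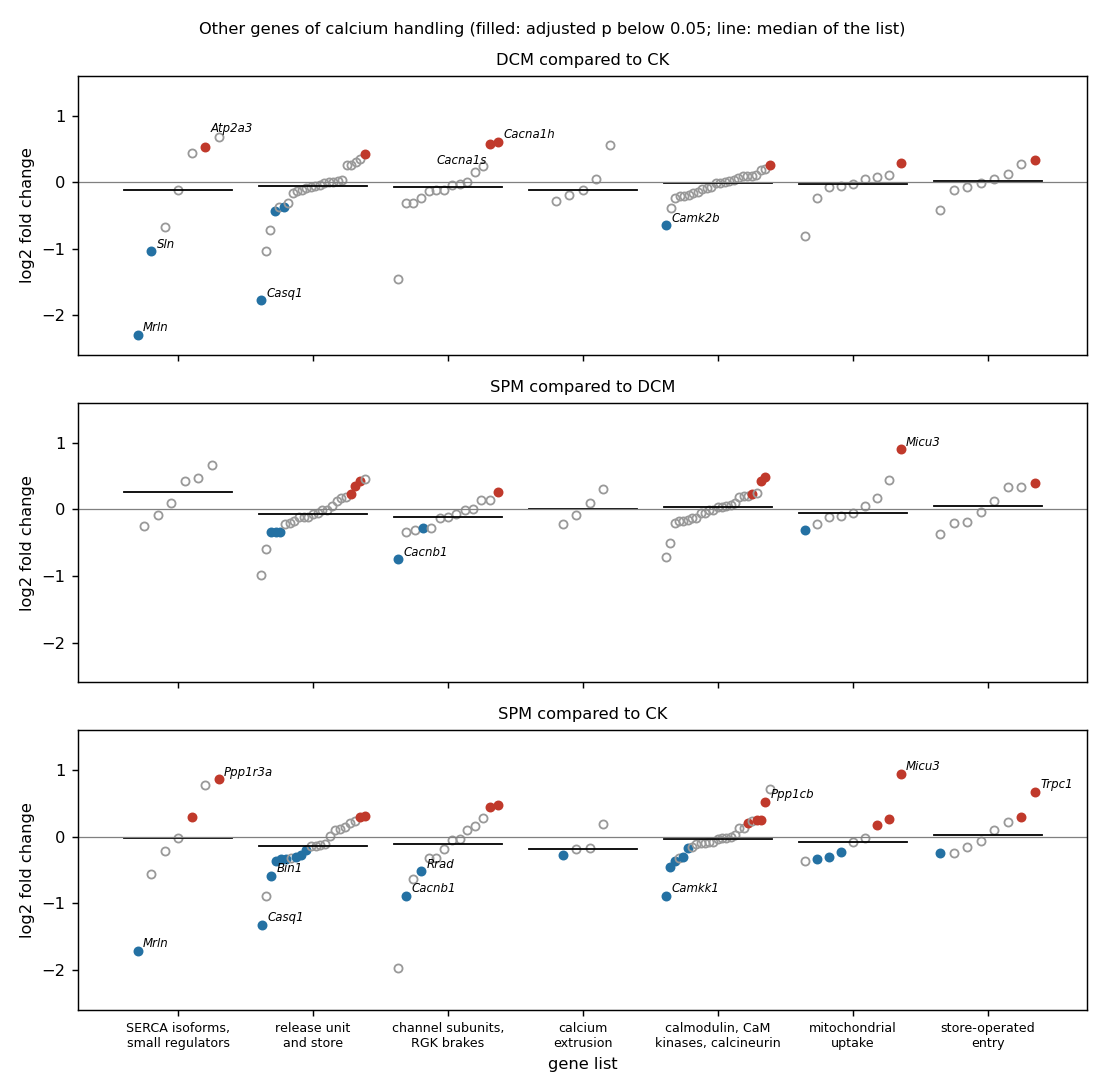
Log2 fold change of each tested gene on 7 lists of calcium handling in the 3 comparisons, sorted within a list, with red and blue points for genes called up or down at an adjusted p below 0.05, open points for the rest and a line for the median of the list. In DCM compared to CK the deepest falls among called genes are Mrln, Casq1 and Sln, while Cacna1h and Cacna1s rise.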

How the data were processed

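RNA was measured in 9 heart libraries, 3 each of CK, DCM and SPM, grouped by their labels. The methods describe a library both as 1 mouse and as a pool of hearts, so p-values measure the spread between these libraries only. The authors deposited counts per gene (whole numbers, reads filtered with fastp 0.18.0). The authors also deposited FPKM values, each being the count over a fixed gene length and over the total of its library (largest relative deviation 8.6e-13). The submitters' processing notes name Bowtie 0.12.2 and the builds mm8 and mm9 without a role, while counting tool and annotation were not given in the sources used here. Coordinates are from GENCODE M21 and RefSeq on GRCm38, joined by identifier (22820 of 22851) or symbol.

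Members and lists were chosen with earlier results of these data known. Groups were compared 2 at a time (6 libraries) in R 4.3.3 (edgeR 4.0.16, filterByExpr filter, TMM) at an adjusted p of 0.05 and, for DEGs, a fold of 1.5, and the steps were tested on simulated data. The standard error is the log2 fold change divided by the root of the F statistic. TMM-normalized CPM used all 9 libraries. Alternatives were DESeq2 1.42.0, RLE, no mitochondrial genes, no filter, a minimum of 1 CPM in 3 libraries, a single fit of all 9 libraries, a replicate block, a GC offset (lowess span 0.3), limma 3.58.1 on log2 of FPKM plus 0.1 or plus 1, a fold of 1.3 and each library left out. The GC correction without SPM replicate 2 and the ratios were added after the data were seen. Genes named are all members, the 2 most abundant of each list and up to 3 called genes with the largest change and no overlap per list and comparison. Marker genes beyond the 3 most abundant of a list were picked with their values known. Some genes that this rule takes are left out here. Intervals for counting error were not needed, as replicates gave the spread.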

Additional observations from a re-analysis of the deposited data

How the results depend on the processing

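The falls of Cacna1d and Cacna1g in DCM compared to CK kept their direction and their call under each of the 10 alternatives and each library left out. Called DEGs among the members numbered 2 there, but 0 with limma on log2 of FPKM plus 1, where the added 1 lowers the fold of genes of a few FPKM by construction. With libraries left out in turn, members called ranged from 2 to 3 and list genes from 8 (without CK replicate 2) to 13 in DCM compared to CK. In SPM compared to DCM members called ranged from 1 (without SPM replicate 2 or DCM replicate 2) to 4, DEGs from 0 (without DCM replicate 2) to 3 and list genes from 0 (without SPM replicate 2) to 19, with 1 without DCM replicate 2 and 2 without DCM replicate 1. In SPM compared to CK members called ranged from 3 to 5, DEGs stayed at 3, and list genes ranged from 12 (without SPM replicate 2) to 33. With the GC correction, SPM compared to DCM gave 0 members, 0 DEGs and 3 list genes, and SPM compared to CK gave 1 DEG. Of all genes, 3.08% and 21.3% were called there. Together with leaving out SPM replicate 2, the correction gave 0, 0 and 0 in the first and 2, 1 and 11 in the second. Without SPM replicate 2 alone, 0.486% and 10.4% of all genes were called. For the pair of settings, the replicate block, limma and the other libraries left out, the share of all genes is not given here. Members and lists were chosen with earlier results of these data known. Their counts thus do not show, in any setting, whether they moved apart from the other genes. Signs changed for some values near 0 and for the calls of Cacnb2 (0.27) and Calm2 (0.23) in SPM compared to DCM. Trdn in DCM compared to CK was -0.0061 and -0.0063 with limma (FPKM plus 0.1 and plus 1). Cacna1c in SPM compared to DCM was -0.0026 with DESeq2, -0.0042 without the filter, and -0.0011 and -0.0012 with limma. Cacna1g there was 0.077 with the GC correction and 0.10 with SPM replicate 2 left out as well, while Cacnb2 turned to -0.11 and -0.12 and Calm2 to -0.022 and -0.034 under the same pair of settings. Without single libraries, Trdn in DCM compared to CK ranged from -0.15 to 0.27, and in SPM compared to DCM Ryr2 ranged from -0.13 to 0.058 and Cacna1c from -0.068 to 0.059. The cause of these changes was not tested. Replicate numbers did not pair the libraries (residual correlations -0.0746 to 0.205 within a number and -0.284 to 0.217 otherwise, 3 of 9 libraries closest to their own number). A replicate block called 3, 5 and 6 members in the comparisons in the order above, adding Casq2 (0.26) in SPM compared to DCM, which DESeq2, the fit without mitochondrial genes, the minimum of 1 CPM and the fit of all 9 libraries also called, and Ryr2 (-0.26) in SPM compared to CK. The planned ratio of Atp2a2 to Pln was not run. Precision was lowest for genes with few counts, 105 to 268 per library for Cacna1d and 3 to 33 for Mrln.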
